A study of Mus musculus with 23 samples.

Results

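The J segments of the T cell receptor alpha chain (TRAJ) were examined by their place along the locus in 23 libraries of a mouse melanoma model. Entries of the alpha chain table were taken where the J segment was any other than TRAJ18, the segment of the invariant natural killer T cell receptor, and were grouped by J number. This gave 40 of the 41 TRAJ segments in the table and 28499 of its 29047 alpha chain entries, out of 64436 alpha and beta entries in all. An entry joins a V name, a J name and the amino acids of the CDR3, the loop formed where both meet. It is called a clonotype of a library where its count there was above 0. The class J1 to J20 held 12 segments and 6765 entries (23.7%), J21 to J40 held 17 segments and 16570 entries (58.1%), and J41 and above held 11 segments and 5164 entries (18.1%).

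The alpha chain is made by joining 1 of many V segments to 1 of many J segments, with no D segment between them. A cell can rearrange the same allele again, and each further joining uses a V segment farther 5' and a J segment farther 3' than the one it replaces. J segments with high numbers lie at the 5' end of the J cluster, next to the V segments, and are reached by early joinings. J segments with low numbers lie at the 3' end, near the constant region, and are reached by later ones. In the mouse RefSeq annotation of GRCm38.p6 all 41 TRAJ names were found among 60 Traj genes, and the number fell along the locus in 59 of 59 neighbouring pairs. Of the Traj genes without an entry in the table, 9 are annotated as pseudogenes and 10 as J segments.

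The model is grown from NIL, a murine melanoma line with the Nras Q61R mutation that was exposed to ultraviolet radiation to raise its mutation load. All 8 groups share this line: no drug (control), trametinib, which inhibits the kinase MEK, BGB-283, which inhibits RAF kinases and EGFR, and both drugs together (combination), each at D4 and at D11. Each group had 3 libraries, except control at D11 with 2. The labels give no dose, host strain or animal age. They name the melanoma line as the tissue, although the RNA read is that of T cell receptors, and they do not say whether replicates came from separate animals. The p-values below therefore measure the spread between libraries, which may be technical.

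Counts of the 40 segments ran from 36820 to 508863 per library (median 164241), and their clonotypes from 264 to 4308 (median 1103). The lowest values were those of control D11 replicate 1 and control D4 replicate 1. Entries lying near a much larger one were common. In the median library 19.9% of clonotypes (10.7% to 30.6% over 23 libraries) had the J segment and CDR3 length of an entry with at least 20 times their count in the same library and differed from it by at most 1 residue. These near copies held 1.24% to 3.20% of counts. They made up 28.8% ± 2.35 of clonotypes in control D4 (n = 3) and 14.2% ± 0.478 in control D11 (n = 2). Main shares of clonotypes are also given without them.

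The last residues of the alpha CDR3 are encoded by the J segment. In 89.7% of entries the CDR3 closed with the commonest 6 residues of its J segment, and this share ran from 72.8% for TRAJ5 to 97.1% for TRAJ53. The 40 segments had 39 distinct commonest endings. These endings were taken from the entries already given each J name, so they do not test the J call. The endings of 6 segments in 5' to 3' order, chosen to span the locus, were as follows.
TRAJ58: GSKLSF
TRAJ57: SAKLIF
TRAJ42: NAKLTF
TRAJ22: SWQLIF
TRAJ12: GYKVVF
TRAJ6: NYKPTF

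A few clonotypes are shown whole, as examples of the pairings described below. The first 2 are the largest clonotypes of J21 to J40 and of J1 to J20, the next is the most widely shared one, and the last 2 carry V segments of the 3' and the 5' end of the V cluster.
TRAV6D-5V6N-5 with TRAJ39: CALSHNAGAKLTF
TRAV6D-5V6N-5 with TRAJ6: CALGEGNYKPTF
TRAV14-2V14N-2 with TRAJ22: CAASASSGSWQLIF
TRAV19 with TRAJ48: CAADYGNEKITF
TRAV2 with TRAJ26: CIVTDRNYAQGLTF

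Clonotypes were most frequent in the middle of the J cluster. Averaged over the 23 libraries, J21 to J40 took 58.8% ± 2.93 (SD) of clonotypes, J1 to J20 took 24.6% ± 4.0 and J41 and above took 16.7% ± 2.87. Without near copies these were 58.9% ± 2.40, 23.1% ± 2.78 and 18% ± 2.42. TRAJ22 was the most used segment with 8.15% ± 1.42 of clonotypes, and no library had less than 5.34%. It was followed by TRAJ26 (5.73% ± 1.16), TRAJ23 (5.57% ± 1.57), TRAJ21 (5.14% ± 1.16) and TRAJ30 (5.11% ± 0.814), whose means differed by less than their spread. The least used were TRAJ7 (0.137% ± 0.138), TRAJ2 (0.668% ± 0.550), TRAJ53 (0.771% ± 0.388), TRAJ35 (0.773% ± 0.438) and TRAJ58 (0.840% ± 0.485). The mean share of TRAJ22 was 59.6 times that of TRAJ7, and the median over the 40 segments was 2.07%. Of the 40 segments, 30 were above 0 in every library.

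Use did not fall evenly with distance; the segments of this paragraph, other than the class leaders, were chosen after their values were seen. Within J21 to J40, TRAJ24 (1.33% ± 0.676), TRAJ28 (1.04% ± 0.534), TRAJ35 and TRAJ38 (1.04% ± 0.459) were low beside neighbours such as TRAJ27 (3.74% ± 1.37), TRAJ30 and TRAJ37 (4.33% ± 1.10). In J41 and above, TRAJ49 was highest with 3.19% ± 0.915 and the other 10 segments had means between 0.771% and 2.08%. In J1 to J20, TRAJ9 (4.26% ± 1.65), TRAJ15 (3.65% ± 0.724) and TRAJ12 (3.05% ± 0.671) led. With near copies removed, TRAJ22 stayed first with 8.37% ± 1.18 and TRAJ9 stood at 3.80% ± 0.711.

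**Figure D1:**
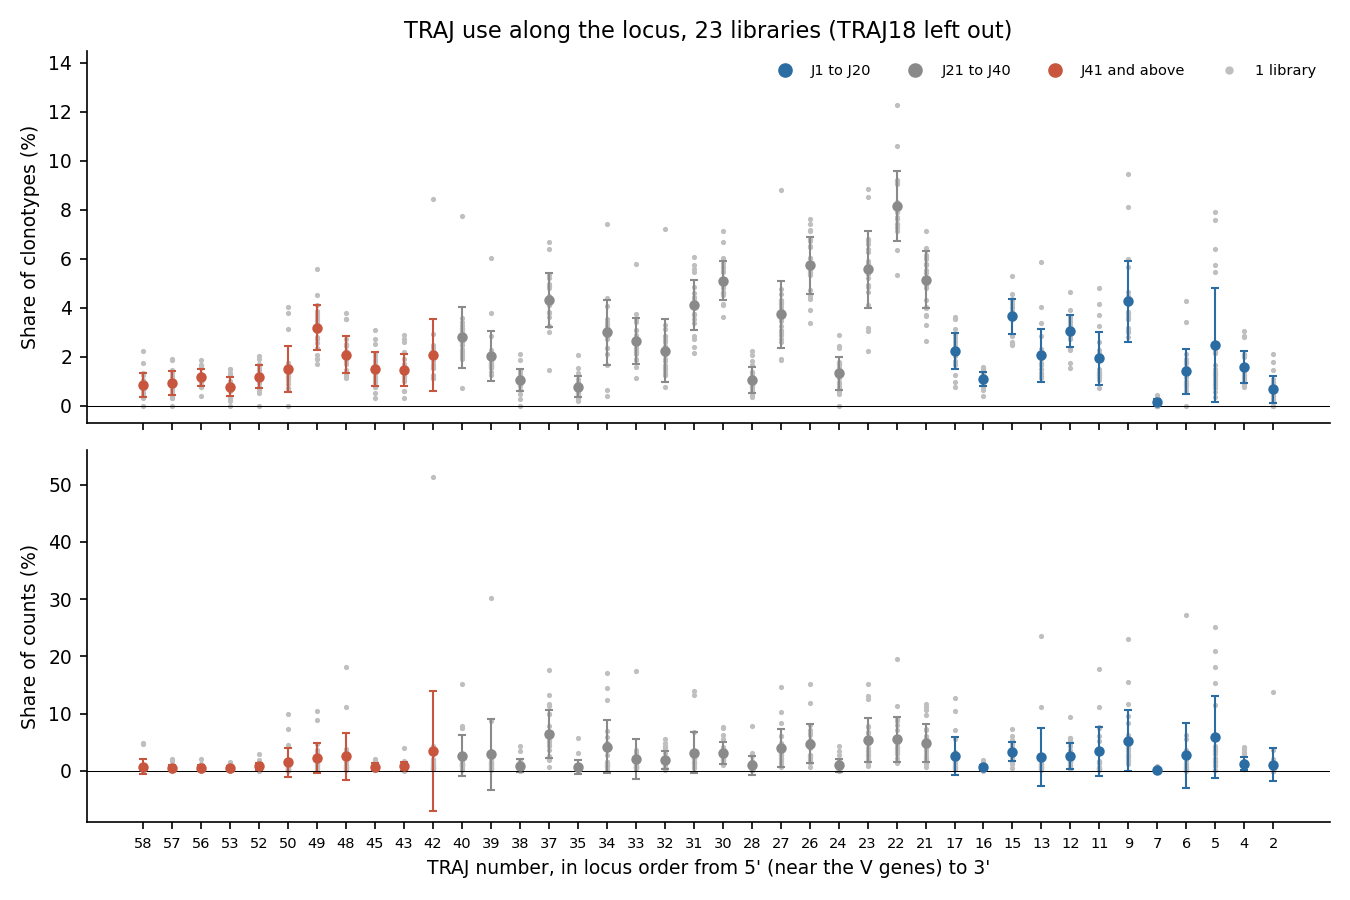
Share of clonotypes (upper panel) and of counts (lower panel) of each TRAJ segment in percent, in locus order from 5' to 3'. Grey points are the 23 libraries, and coloured points with bars are means and SD; bars that reach below 0 come from a few very high libraries. TRAJ22 has the highest share of clonotypes, at 8.15%, and single libraries stand far above the rest by counts, such as 51.3% for TRAJ42.

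The V partner of an entry went with its place along the J cluster. TRAV17 to TRAV21 are the V segments nearest to the J cluster, and 501 of their 671 entries (74.7%) used J41 and above, while 9 (1.34%) used J1 to J20. The share with J41 and above was 77% for TRAV21/DV12 (296 entries), 77.5% for TRAV19 (240) and 62.9% for TRAV17 (116). TRAV18 had 8 entries and TRAV20 had 11, with 87.5% and 63.6% there. TRAV1 and TRAV2 lie at the far 5' end, and 1 of their 146 entries (0.685%, exact 95% binomial interval 0.0173% to 3.76%) used J41 and above. TRAV2 had 0 of 94 entries there, which allows a share of up to 3.19% (3 counts of the total; the exact 95% interval reaches 3.85%). Intervals and limits of this kind cover counting error alone.

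The difference was present within every library that could be compared. Those left out for too few clonotypes of TRAV17 to TRAV21 were all controls, so control D4 is absent from the test. They were control D4 replicates 1, 2 and 3 and control D11 replicate 1, with 2, 4, 5 and 9 such clonotypes. Of these, 2, 4, 1 and 9 used J41 and above. In the 19 libraries with 10 or more clonotypes of TRAV17 to TRAV21, J41 and above took 78.4% ± 9.71 of those clonotypes (56.2% to 95.2%) and 15.9% ± 2.05 of the clonotypes of all other V segments (12.5% to 20%). The 2 ranges did not overlap. The difference was 62.6 percentage points (SD 9.49), higher in 19 of 19 libraries (two-sided sign-flip permutation test, adjusted p = 3.00e-05 over 6 tests; the unadjusted 1.00e-05 is the smallest that 100000 resamples can give). J21 to J40 was lower by 39.2 points (SD 10.2; adjusted permutation p = 4.00e-05) and J1 to J20 by 23.3 points (SD 4.0; adjusted permutation p = 3.00e-05), each in 19 of 19 libraries. With near copies removed the difference in J41 and above was 61.8 points.

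For TRAV1 and TRAV2 only 5 libraries had 10 or more clonotypes. They were trametinib D11 replicate 1, combination D4 replicates 1, 2 and 3 and combination D11 replicate 2, so control and BGB-283 are absent. Combination D11 replicate 1 was left out with 5 such clonotypes, 1 of them in J41 and above. In the 5 libraries used, J41 and above took 0% of the clonotypes of TRAV1 and TRAV2 in 5 of 5. It took 17.2% ± 1.18 of the others, a difference of -17.2 points. The exact sign-flip test gave p = 0.0625, the smallest that 5 libraries allow, and an adjusted p of 0.0938. J21 to J40 took 74.2% ± 16.4 of their clonotypes against 59.7% ± 1.43 of the others (exact adjusted p = 0.150), and J1 to J20 took 25.8% ± 16.4 against 23.1% ± 1.51 (exact adjusted p = 0.688).

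**Figure D2:**
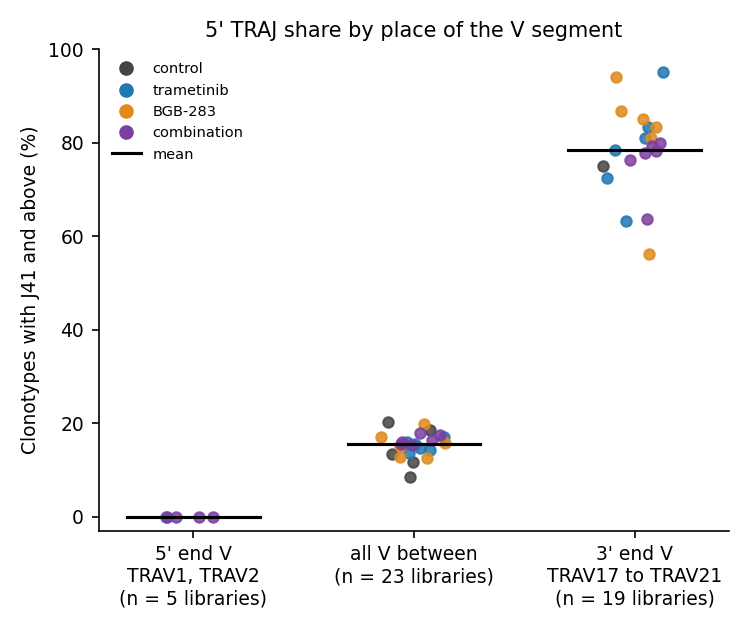
Percent of clonotypes with J41 and above, for V segments of the 5' end, those between and those of the 3' end. Each point is 1 library with 10 or more clonotypes of that kind, coloured by treatment, and lines are means. The 5 libraries of TRAV1 and TRAV2 are at 0, and the 19 libraries of TRAV17 to TRAV21 lie between 56.2% and 95.2%.

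Read from the side of the J segments, the share of entries with TRAV17 to TRAV21 was highest at the 5' end of the J cluster. It was 20.9% for TRAJ58, 19.5% for TRAJ57, 16.2% for TRAJ56 and 12.7% for TRAJ53, and 3.82% for TRAJ42, the last segment of the class. TRAJ38 (7.67%) and TRAJ35 (5.02%) were the highest of J21 to J40. Over the classes the share was 9.70% in J41 and above, 0.972% in J21 to J40 and 0.133% in J1 to J20. The CDR3 shown for TRAV19 with TRAJ48 was found in 4 libraries, at most at 0.870% of counts.

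**Figure D3:**
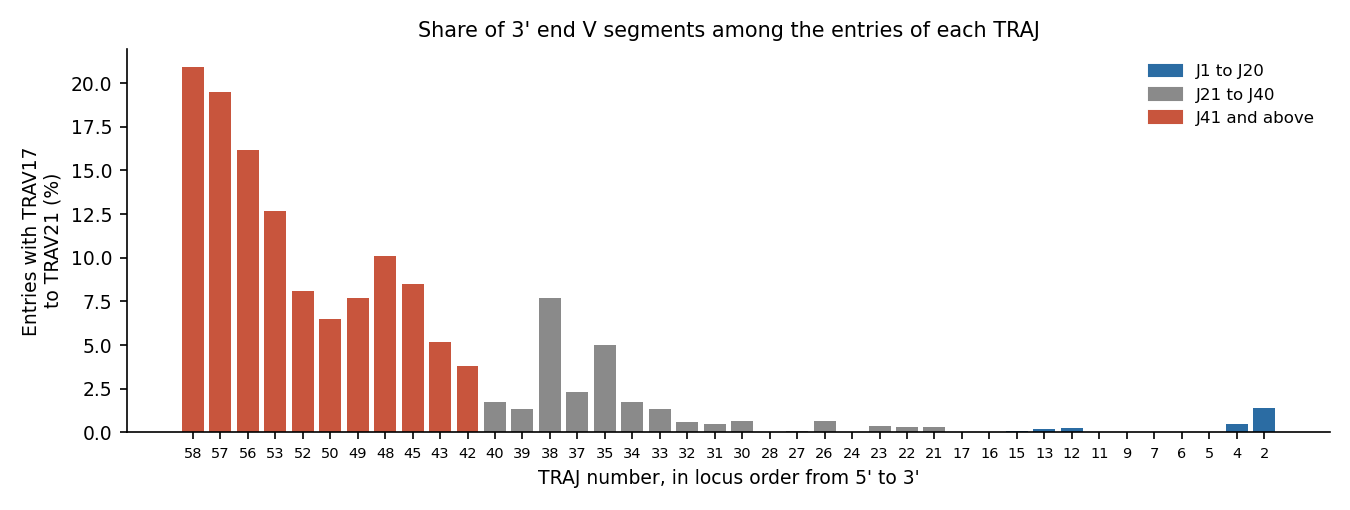
Percent of the entries of each TRAJ segment that carry TRAV17 to TRAV21, in locus order from 5' to 3', coloured by class. The bars are highest at TRAJ58 (20.9%) and TRAJ57 (19.5%) and are below 2% from TRAJ34 on towards 3'.

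Between the ends, the mean J number did not rise evenly along the V cluster. The mouse V cluster holds repeated copies, named with D, with N or without a suffix. Of the 142 TRAV names, 67 are single names, all found in RefSeq, and 75 name several copies at once, with 41.5% of entries. Over the 54 single TRAV segments with 30 or more entries, the mean J number and the place in RefSeq order had a Pearson's r of 0.25, and over the 49 of neither end r was -0.08. These are descriptions, since the segments share libraries, depth and near-identical sequence.

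Within the D copies the mean J number ran from 23.8 for TRAV7D-2 (1809 entries), the first of them, to 45.7 for TRAV14D-2 (164 entries, 72.0% with J41 and above). Pearson's r was 0.69 over 13 segments. TRAV7D-6 (38.2) and TRAV13D-3 (29.2, 39 entries) follow TRAV14D-2 in the order and were lower than it. Parted at the TRAV15-1 gene, the upstream D copies averaged a J number of 25.5 ± 2.05 and the downstream ones 35 ± 3.50 over libraries, higher downstream in 22 of 23. The copies without suffix ran from 19.4 for TRAV7-2 to 35 for TRAV12-3. Of the 4 segments farther 3', TRAV13-4/DV7 was the highest of these copies (37.1), while TRAV8-2 (21.7), TRAV16 (23.3) and TRAV14-3 (24.2) were low. Their r was 0.18 over 12, with means of 28.4 ± 1.87 upstream and 26.9 ± 3.90 downstream (higher downstream in 10 of 23 libraries). For the N copies it was -0.19 over 19, with means of 24.3 ± 5.28 upstream and 24.8 ± 1.34 downstream (higher in 15 of 23 libraries). Copies with near-identical sequence can be exchanged by the V call, and this was not tested.

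**Figure D4:**
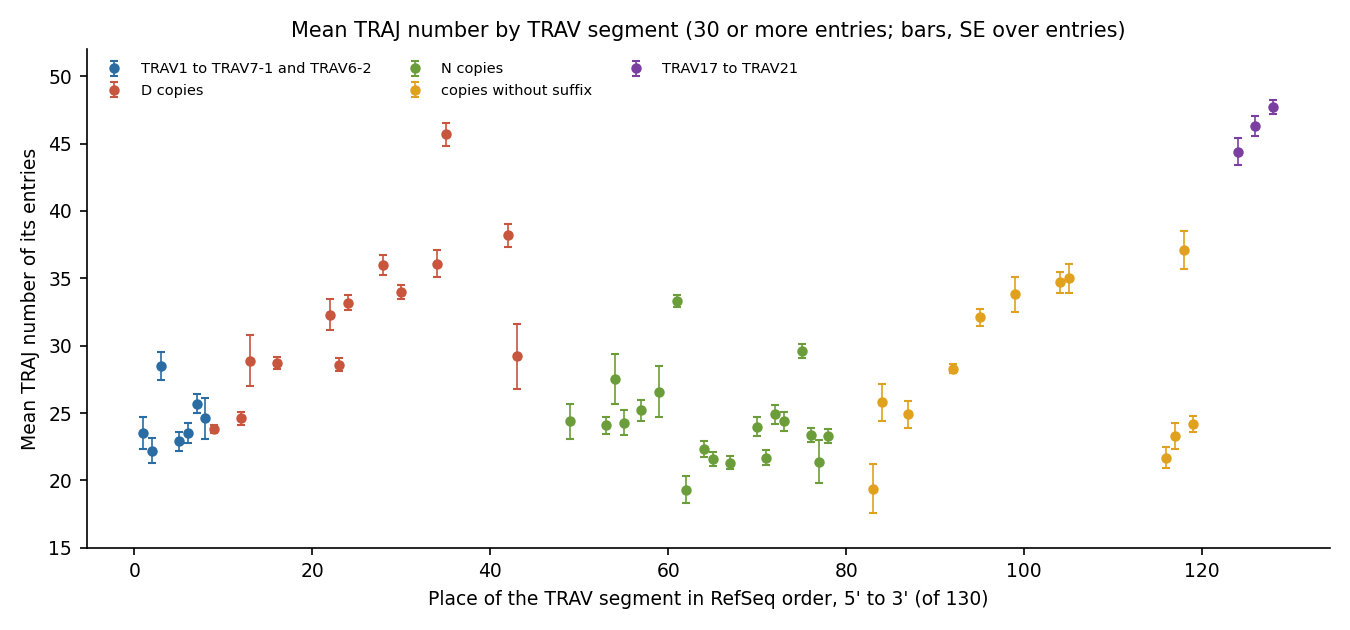
Mean TRAJ number of the entries of each TRAV segment with 30 or more entries against its place in RefSeq order, 5' to 3'; bars are SE over entries, which are not independent. D copies run from 23.8 for the first to 45.7 for TRAV14D-2, N copies stay between 19.3 and 33.3, and TRAV17 to TRAV21 lie between 44.4 and 47.7.

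Counts and clonotypes gave different pictures of the classes. J1 to J20 took 31.2% ± 12.3 of counts against 24.6% ± 4.0 of clonotypes, a difference within libraries of 6.65 points (SD 9.78) that was positive in 18 of 23 (two-sided sign-flip permutation test, adjusted p = 0.00750 over 3 tests). J21 to J40 took 54.5% ± 11.2 of counts, 4.31 points less than of clonotypes (adjusted permutation p = 0.0543), and J41 and above took 14.3% ± 10.8, 2.34 points less (adjusted permutation p = 0.261). The excess of J1 to J20 was 8.39 points ± 3.76 in control (5 of 5 libraries positive), 7.39 ± 6.67 in trametinib (6 of 6), 9.61 ± 15.7 in BGB-283 (4 of 6) and 1.51 ± 8.52 in combination (3 of 6). It was 3.20 points with the class bounds moved to J25 and J45 (adjusted permutation p = 0.185). J41 and above was lower by counts in 18 of 23 libraries. With the largest clonotype of each library left out its difference was -4.36 points (adjusted permutation p = 1.50e-04), and without BGB-283 D4 replicate 2 alone it was -4.03 (adjusted permutation p = 0.00216). With the bounds at J15 and J35, the class of highest J numbers turned direction, at 0.369 points (adjusted permutation p = 0.865).

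Single segments differed widely in the same respect. The mean share of counts over the mean share of clonotypes was highest for TRAJ5 (2.36), TRAJ6 (1.91), TRAJ11 (1.74) and TRAJ42 (1.69). Without the library of its highest count share, each was 2.23, 1.23, 1.48 and 0.740 in that order; for TRAJ42 this was BGB-283 D4 replicate 2, and for TRAJ6 it was BGB-283 D11 replicate 1. It was lowest for TRAJ56 (0.486), TRAJ45 (0.492), TRAJ53 (0.538), TRAJ43 (0.541) and TRAJ16 (0.556). Of 336 clonotypes with 1% or more of the counts of a library, 120 used J1 to J20, 179 used J21 to J40 and 37 (11%) used J41 and above.

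TRAJ5 took 5.86% ± 7.16 of counts over 23 libraries, from 0.140% to 25.1%. In control D4 its shares were 15.4%, 5.82% and 20.9%, and in control D11 they were 1.02% and 2.13%. Its clonotypes included many near copies, and its mean share of clonotypes was 2.48% ± 2.33 with them and 1.38% ± 1.04 without. In BGB-283 D11 replicate 1 it held 7.93% of clonotypes, and 2.66% without near copies. In control D4 replicate 3 it went from 6.38% to 2.14%. An entry of TRAV13D-1 with TRAJ5 was above 0 in 16 libraries and reached 18.9% of counts in control D4 replicate 3.

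The largest single clonotype was that of TRAV14-2V14N-2 with TRAJ42, with 46.7% of counts in BGB-283 D4 replicate 2, and it was above 0 in 5 other libraries. It brought J41 and above to 55.5% of counts there, and without it the share was 16.5%. The same CDR3 and J segment were also listed under TRAV14D-2, at 2.60% of that library. TRAJ42 held 93 clonotypes there, of which 67 were near copies, and its 8.43% of clonotypes fell to 3.02% without them. The TRAJ39 clonotype held 29.2% of counts in combination D11 replicate 3 and was listed in that library alone. The TRAJ6 clonotype held 25.9% in BGB-283 D11 replicate 1 and was listed in 1 other library. In combination D11 replicate 1 a TRAJ48 clonotype with TRAV12D-2 held 16.5%.

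Entries shared between libraries were counted in each class. Of the entries, 8.04% in J1 to J20, 9.60% in J21 to J40 and 5.56% in J41 and above were found in 2 or more libraries, and 37, 109 and 6 entries were found in 5 or more. These are counts over pooled entries and were not tested. The TRAJ22 clonotype shown above was found in 20 of 23 libraries, at a median of 0.138% and at most 0.551% of counts where present. The same CDR3 appeared under 2 other TRAV14 names in 17 and 13 libraries. No entry of J41 and above was found in more than 7 libraries. TRAJ22 (16.9%), TRAJ37 (12.9%) and TRAJ12 (12.1%) had the highest shares of shared entries, and TRAJ7 (2.17%), TRAJ2 (2.33%) and TRAJ58 (2.49%) the lowest.

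CDR3 length averaged 13.6 residues (SD 1.52) in J1 to J20, 13.5 (SD 1.35) in J21 to J40 and 14 (SD 1.49) in J41 and above. The shortest mean was 12.4, in TRAJ31 and TRAJ43, and the longest was 15.4, in TRAJ2.

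Of the invariant alpha chains that use these segments, the mucosal-associated invariant T cell pairing of TRAV1 with TRAJ33 had 3 entries in 2 libraries, at most 0.0284% of counts. The CDR3 below was found in both.
TRAV1 with TRAJ33: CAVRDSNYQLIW

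TRAJ50, which forms the alpha chain of a further natural killer T cell type together with a TRAV13 segment in mice, had 59 entries with TRAV13 family names in 17 libraries. These reached 9.90% of counts in combination D11 replicate 3 and had a median of 0.0219% over the 23 libraries. In that library 9.71% was 1 clonotype, of TRAV13N-1, listed there alone.

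Treatment and time were then compared for the 3 classes. Controls entered 3 of the 5 treatment contrasts, so those contrasts are not independent. Treatments were compared within each day, and D11 with D4 within each treatment, by an exact two-sided permutation test of the log2 odds of a class, with 0.5 counts added, and p-values were adjusted over the 18 tests of a weighting (3 classes in 6 contrasts). The smallest p is 0.005 for a treatment contrast. It is lower for D11 against D4, which has 80000 arrangements of the labels. By counts, 0 of 18 differences passed the threshold of 0.05 (0 unadjusted, smallest adjusted p = 0.574 in the exact permutation test). By clonotypes, 0 of 18 passed as well (3 unadjusted, smallest adjusted p = 0.270 in the exact permutation test).

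**Figure D5:**
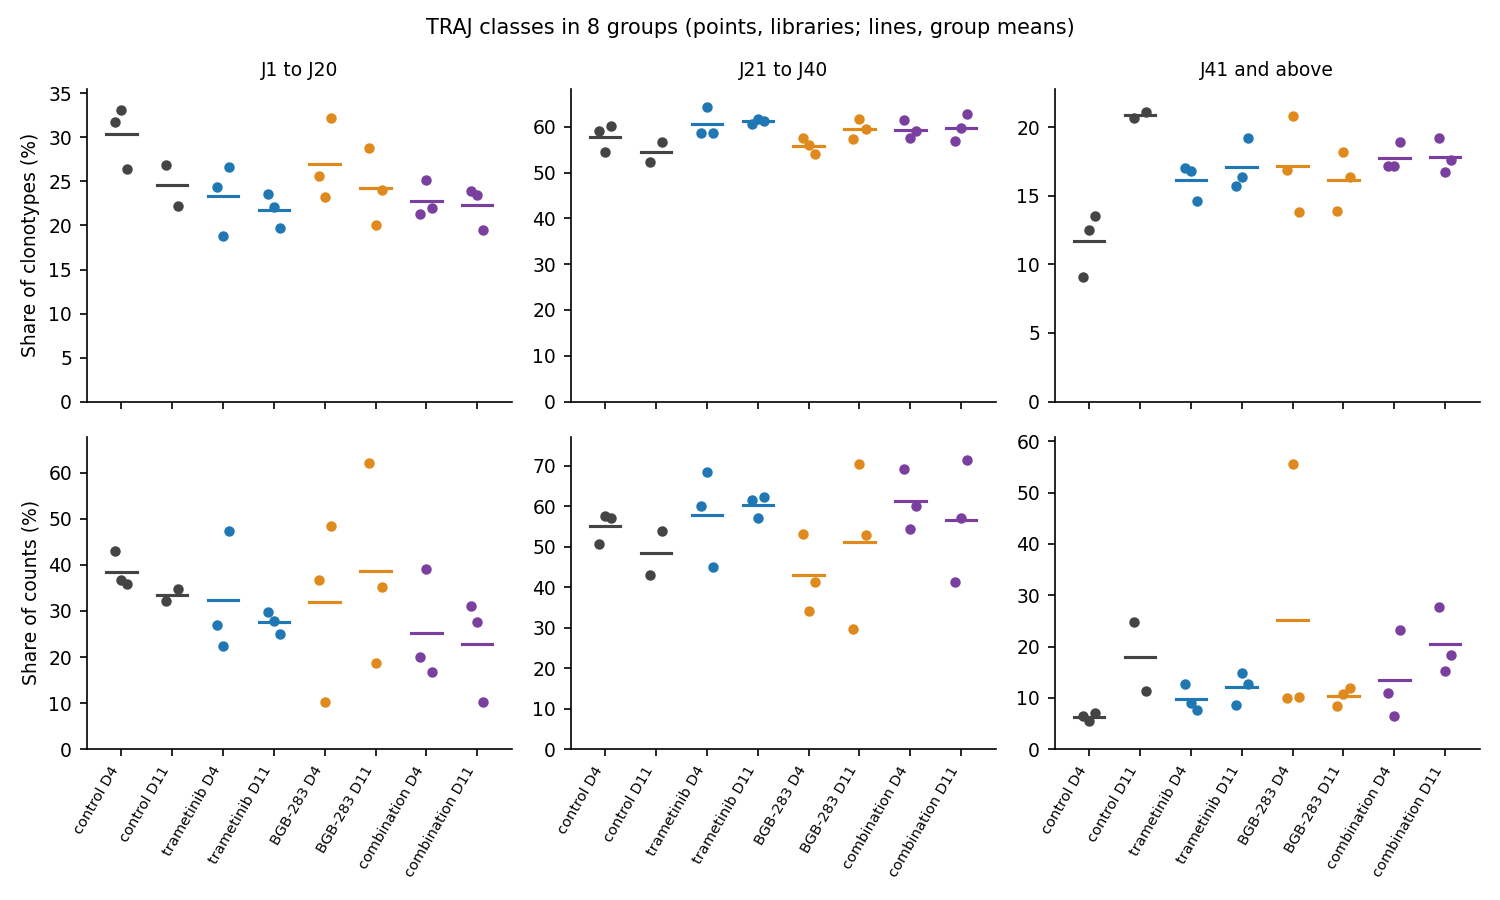
Share of clonotypes (upper row) and of counts (lower row) of the 3 TRAJ classes in percent for the 8 groups; points are libraries and lines are group means. J41 and above takes 9.09% to 13.5% of clonotypes in control D4 and 20.7% and 21.1% in control D11, and 1 library of BGB-283 D4 reaches 55.5% of counts.

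J1 to J20 had the largest of these differences by clonotypes. The shares were 31.8%, 33.1% and 26.4% in control D4 and 26.9% and 22.2% in control D11. In the 6 combination libraries they ran from 19.5% to 25.2% with a mean of 22.6% ± 2.03, and 3 of 6 lay below all 5 controls. In the 6 trametinib libraries the mean was 22.5% ± 2.98, and 3 of 6 lay below all controls. The differences were -0.38 in log2 odds for both (exact permutation p = 0.0450 and 0.04, adjusted p = 0.270 for each). In BGB-283 the mean was 25.6% ± 4.31, a difference of -0.14 (exact permutation adjusted p = 0.582). With near copies removed the combination difference was -0.20 and that of trametinib -0.39 (exact permutation adjusted p = 0.406 and 0.135). J21 to J40 was higher under trametinib by 0.28 (60.9% ± 2.16 against 56.5% ± 3.21, exact permutation p = 0.03, adjusted p = 0.270).

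By clonotypes, J41 and above differed from control in opposite directions at the 2 times. At D4 the control shares of clonotypes were 9.09%, 12.5% and 13.5%, with 24, 52 and 91 clonotypes of this class. The 9 treated libraries of D4 ran from 13.8% to 20.8%, so 9 of 9 lay above all controls. At D11 the control shares were 20.7% and 21.1% and the 9 treated libraries ran from 13.9% to 19.2%, so 9 of 9 lay below both. The groups did not overlap on either day, and the control libraries of the 2 days stood on either side of all treated libraries of D11.

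The difference between days was tested for each contrast by permuting day labels within treatments. For J41 and above by clonotypes it was -1.0 in log2 odds for combination, -0.91 for trametinib and -1.10 for BGB-283 (exact permutation p = 0.0700, 0.140 and 0.0650). Adjusted over 15 tests these were 0.350, 0.525 and 0.350. Of 30 such tests over both weightings, 0 passed after adjustment and 1 had an unadjusted p under 0.05. This was J41 and above by counts for BGB-283, at -2.74 (exact permutation p = 0.03, adjusted p = 0.450), which includes the library with the large TRAJ42 clonotype.

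Near copies moved with these groups. They were most frequent in control D4 and least frequent in trametinib D11 (13.3% ± 4.06) and control D11. Without them the control shares of J41 and above ran from 9.74% to 17.4% at D4 and from 19.6% to 22.2% at D11, and the groups overlapped. Then 7 of 9 treated libraries lay above all controls at D4 and 8 of 9 below both at D11. The differences between days were -0.76, -0.66 and -0.72 (exact permutation p = 0.0700, 0.190 and 0.150, adjusted p = 0.459 for each).

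V segments of the 3' end moved with J41 and above in the controls. TRAV17 to TRAV21 took 0.820% ± 0.121 of clonotypes in control D4 (11 clonotypes over 3 libraries), 2.39% ± 0.556 in control D11 (25 over 2 libraries) and means of 1.93% to 2.71% in the 6 treated groups. Among V segments of neither end, J41 and above took 11.9% of summed clonotypes in control D4, 19.7% in control D11 and 14.7% to 16.3% in the treated groups. The part of either in the other was not tested.

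Single segments were tested on counts with edgeR's quasi-likelihood test over 195 alpha and beta V and J segments, with the total of the chain as library size. No TRAJ of the 40 passed an adjusted p of 0.05 in any of 6 contrasts. Over all segments tested, 0% were called in combination against control, 0% in trametinib against control and 1.03% in BGB-283 against control. In combination against trametinib, combination against BGB-283 and D11 against D4 the share was 0%, 0.513% and 0%. At an unadjusted p under 0.05 the TRAJ counts in that order were 7, 2, 5, 3, 8 and 5, where 12.3%, 8.72%, 12.3%, 5.64%, 9.74% and 14.9% of all segments had one. DESeq2 on the TRAJ counts alone called 5, 0, 0, 1, 4 and 3 of them, where it called 15.4%, 0%, 0%, 2.56%, 10.3% and 7.69% of the TRAJ segments with an adjusted p, TRAJ18 included. In combination against control these were TRAJ24, TRAJ28, TRAJ33, TRAJ38 and TRAJ58. TRAJ58 was called against trametinib, and TRAJ28, TRAJ32, TRAJ39 and TRAJ58 against BGB-283. At D11 against D4 they were TRAJ6, TRAJ11 and TRAJ13. The common biological coefficient of variation was 1.14.

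Against control, 25 of 40 segments were higher in combination (median log2 difference 0.27, beside 0.26 over all 195 segments), 25 in trametinib (0.25 beside 0.45) and 20 in BGB-283 (0.02 beside -0.04). By class, the medians in combination were -0.11 for J1 to J20, 0.27 for J21 to J40 and 0.42 for J41 and above. At D11 against D4, 23 of 40 were higher, beside 107 of all 195 segments (median 0.11). In J41 and above 9 of 11 were higher (median 0.50), and the medians in the other classes were -0.26 and -0.25.

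TRAJ28 was low by counts in the combination libraries. Its shares of counts were 0.457%, 0.407% and 3.10% in control D4, 0.378% and 1.17% in control D11, and ran from 0.0743% over a median of 0.165% to 0.252% in combination. By counts, all 6 combination libraries lay below all 5 controls, in a comparison where 0% of segments were called. How many of all segments separated in this way is not given here. The difference was -2.63 in log2 (SE 1.02, adjusted p = 0.276 in edgeR's quasi-likelihood test). DESeq2 called it.

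TRAJ38 had a higher mean share of counts in each treatment than in control, and by counts lay apart from the controls under trametinib. The control shares were 0%, 0.109% and 0.296% at D4 and 0.378% and 0.190% at D11. The 6 trametinib libraries ran from 0.450% over a median of 0.685% to 1.79%, all above the controls. The difference was 2.19 (SE 0.97, adjusted p = 0.430 in edgeR's quasi-likelihood test), in a comparison where 0% of segments were called. In combination 5 of 6 lay above all controls (0.177% to 4.41%, difference 2.52, SE 0.99, adjusted p = 0.276 in the same edgeR test). DESeq2 called TRAJ38 in combination against control and not in trametinib against control. In BGB-283 the shares ran from 0.108% to 1.90% and overlapped the controls (difference 1.57, SE 0.94, adjusted p = 0.528 in the same edgeR test). The control library listed at 0 had 264 clonotypes in all. By clonotypes trametinib overlapped the controls, with shares of 0.823% to 1.43% against 0% to 1.24%.

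TRAJ39 separated the combination from BGB-283 alone by counts. It took 1.21% to 30.2% of counts (median 1.44%) in combination and 0.197% to 1.04% (median 0.555%) in BGB-283, with 6 of 6 libraries of the first above all of the second. The difference was 2.86 (SE 0.81, adjusted p = 0.109 in edgeR's quasi-likelihood test, in a comparison where 0.513% of segments were called). The single TRAJ39 clonotype of combination D11 replicate 3 is part of it, and leaving out each library in turn gave 1.36 to 3.22. DESeq2 called TRAJ39 in this comparison. By clonotypes the groups overlapped. The shares ran from 1.58% to 6.05% in combination (mean 2.46% ± 1.76) and from 1.25% to 1.74% in BGB-283 (mean 1.58% ± 0.177). Without near copies none of the 23 libraries had more than 2.97% of clonotypes in TRAJ39.

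The remaining segments with the smallest p-values rested on single libraries or overlapped. TRAJ42 was 2.93 higher in BGB-283 than in control (SE 0.94, adjusted p = 0.185 in edgeR's quasi-likelihood test), and 0.89 higher in the leave-one-out fit with the lowest value. TRAJ33 took 17.4% of counts in control D4 replicate 3, and the differences of combination and BGB-283 from control were -2.14 and -1.96, or as little as -0.35 and -0.17 with 1 library left out. TRAJ50 was 2.69 higher at D11 than at D4 (SE 0.78, adjusted p = 0.162 in the same edgeR test), from 0.241% to 10% of counts at D11 and from 0% to 1.40% at D4, with 5 of 11 libraries above all of D4. TRAJ24 was 3.05 higher in trametinib than in control (SE 1.20, adjusted p = 0.401 in the same edgeR test), with 5 of 6 libraries above all controls.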

How the data were processed

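The authors deposited 1 table of counts per V segment, J segment and CDR3 for 23 libraries, and its columns were matched to libraries by title. Per the submitters' processing notes the build was GRCh38, a human build, although the samples are mouse; no aligner or clonotype caller is named there (not given in the sources used here). Of 64710 entries, 274 with an unresolved CDR3 residue were left out. The lowest count above 0 was 3, and 3650 values equalled 20, against 804 at 19 and 509 at 21; what 1 count stands for is not stated.

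Shares of counts and clonotypes were computed with Python 3.11.15, numpy 2.4.6, pandas 2.3.3 and scipy 1.17.1. Single segments were tested on the deposited counts with edgeR 4.0.16 (quasi-likelihood, no further scaling) and, as an alternative, DESeq2 1.42.0 in R 4.3.3, with Benjamini-Hochberg adjustment. Scripts were tested on simulated data. The segments named per contrast come from the 3 with the smallest p, and for levels from the 5 most and 5 least used and the leader of each class. RefSeq names and gene order are those of GRCm38.p6. Members and lists were chosen with earlier results of these data known. The removal of near copies, the blocks of the V order and the leave-one-out settings for V partners, for counts against clonotypes and for the ratios of single segments were chosen after seeing the data.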

Additional observations from a re-analysis of the deposited data

Results flagged for a closer look

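In 3 of 32 sets of libraries of 1 treatment, a single library stood far from the others (Dixon's criterion). Chance gives this in about 1 of 20 independent sets. The sets here hold related measures of the same libraries, so these rates cannot be compared directly. Trametinib D4 replicate 3 had 47.4% of counts in J1 to J20, where the next library of that treatment had 29.8%. Its mean J number over counts was 20.8, and the next was 25.2. Its largest clonotype, TRAV7D-2 with TRAJ11, held 12.2% of counts, and without it J1 to J20 stood at 40.1%. BGB-283 D4 replicate 2 had 55.5% of counts in J41 and above, where the next library of that treatment had 11.9%, and 16.5% without its TRAJ42 clonotype.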

How the results depend on the processing

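The 36 class comparisons by treatment and time were repeated under alternative settings, which gave 846 tests in all. Of these, 0 passed (exact permutation test, smallest adjusted p = 0.0900). Direction turned in these cases, given in log2 odds. With bounds at J15 and J35, clonotypes of J1 to J20 gave -0.0019 (combination against trametinib), J21 to J40 -0.04 (D11 against D4), J41 and above -0.01 (combination against BGB-283), and counts of J21 to J40 -0.01 (combination against control). With bounds at J25 and J45, clonotypes gave -0.13 (J1 to J20, combination against trametinib), 0.05, -0.01 and -0.01 (J21 to J40, combination against trametinib, against BGB-283, and D11 against D4) and -0.05 (J41 and above, BGB-283 against control). Counts there gave 0.33 and 0.17 (J21 to J40, BGB-283 against control, combination against trametinib), and -0.15 and -0.39 (J41 and above, trametinib and BGB-283 against control). Without the largest clonotypes, BGB-283 against control was 0.10 (counts, J21 to J40) and combination against BGB-283 -0.13 (counts, J41 and above). Estimated molecules gave 3.9e-04 and 0.0027 (J21 to J40, combination against trametinib, D11 against D4). Without counts under 20, combination against trametinib was -0.05 (clonotypes, J41 and above). Without near copies, it was -0.0027 there, and combination against BGB-283 was -0.02 (clonotypes, J21 to J40). Without the 2 shallowest controls, D11 against D4 was 0.04 (counts, J21 to J40), and trametinib and BGB-283 against control were -0.01 and -0.02 (clonotypes, J41 and above). The cause was not tested.

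Replicate numbers are shared by the groups, but in no contrast was every same-number correlation above 0.1 (r from -0.393 to 0.354). Over all 28 pairs of groups, 6 had every r above it (highest 0.637, mean 0.0575). With the replicate number as a block, D11 against D4 was 0.04 (counts, J21 to J40), and the smallest adjusted p was 0.562 in the exact permutation test.

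Leaving out 1 library at a time turned the direction within these ranges. By clonotypes they were -0.09 to 0.08 (J1 to J20, combination against trametinib), -0.01 to 0.05 (J21 to J40, D11 against D4), -0.01 to 0.17 and -0.0050 to 0.15 (J41 and above, BGB-283 and trametinib against control). By counts of J1 to J20 they were -0.58 to 0.24 (BGB-283 against control) and -0.29 to 0.10 (D11 against D4). By counts of J21 to J40 they were -0.59 to 0.04 (BGB-283 against control), -0.16 to 0.16 (D11 against D4) and -0.23 to 0.23 (combination against trametinib). By counts of J41 and above they were -0.06 to 0.86 and -0.32 to 0.36 (BGB-283 and trametinib against control) and -0.16 to 0.71 (combination against BGB-283).

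Counts minus clonotypes gave 0.369 points for J41 and above and -7.18 for J21 to J40 with bounds at J15 and J35, 3.20 for J1 to J20 with bounds at J25 and J45, and -4.36 for J41 and above without the largest clonotypes. With 1 library left out they ran from 5.44 to 7.54, from -4.90 to -3.25 and from -4.03 to -1.96 for the classes from J1 upwards. J21 to J40 then passed without any 1 of BGB-283 D11 replicate 2, combination D11 replicate 3, combination D4 replicate 1, control D4 replicate 2, trametinib D11 replicate 3 or trametinib D4 replicates 1 and 2 (-4.90 to -4.56). For TRAV1 and TRAV2, J21 to J40 was -2.81 points with bounds at J25 and J45, and J1 to J20 was -8.43 by counts and -1.62 to 6.96 with 1 library left out. Minimums of 25 clonotypes and of 20 counts left too few libraries there. DESeq2 called 5, 1, 4 and 3 TRAJ segments where edgeR called 0. Controls with few clonotypes limit the precision of every contrast with control.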
